A study of Mus musculus with 18 samples.

Results

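The genes described here are 9 genes that mark microglia, the resident macrophages of the brain, in their surveying or homeostatic state. They are P2ry12, Tmem119, Cx3cr1, Csf1r, Siglech, Trem2, Tyrobp, Aif1 and Selplg. They were chosen by symbol, and all 9 were found among the 55421 genes of the count table. Striatal RNA of 18 C57BL/6 mice, each 12 to 14 months old, was sequenced as 1 library per mouse. The 4 groups were WT (n = 5), zQ175 (n = 5), CK2α’(±) (n = 3) and zQ175:CK2α’(±) (n = 5). zQ175 mice carry 1 copy of the mouse huntingtin gene with a long CAG repeat knocked in, which models Huntington's disease and is present in every cell. CK2α’(±) mice lack 1 allele of Csnk2a2, the gene of the catalytic kinase subunit CK2α’, in every cell, and zQ175:CK2α’(±) mice carry both changes. All mice were anaesthetised and perfused before the whole striatum was frozen, and the sex of single mice is not given in the sources used here. By the study's methods every group held both sexes, with more females than males among WT and zQ175:CK2α’(±) mice and more males than females among zQ175 and CK2α’(±) mice, so sex is unevenly spread over the comparisons. Whole striatum holds many cell types, so fewer microglia and less RNA per microglial cell cannot be told apart.

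Microglia depend on a few receptors that read signals from neighbouring cells. Csf1r is the receptor for the survival factors Csf1 and Il34, and blocking it depletes microglia. Cx3cr1 binds the neuronal chemokine Cx3cl1, and P2ry12 senses ADP released by injured cells and steers microglial processes towards it. Trem2 binds lipids and lipoproteins such as Apoe and signals through Tyrobp, also called DAP12, an adaptor whose activation motif recruits the kinase Syk. In several neurodegenerative models microglia lower P2ry12, Tmem119 and Cx3cr1 and raise Apoe, Lpl and Clec7a when they enter a disease-associated state. The transcription factor PU.1, encoded by Spi1, sets much of the microglial programme and binds purine-rich sites with the core GGAA.

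The stretches just upstream of the transcription start of 5 of the 9 genes are shown so that PU.1-type cores can be read in them. The selection of the genes did not use these cores, which most promoters of any gene hold, as given below. They come from RefSeq on GRCm38.p6, run 5′ to 3′ on the gene's own strand, and end at the base before the start. Tmem119, Csf1r, Tyrobp and Selplg were not in the table used. Capitals mark AGGAA or its reverse complement TTCCT.
P2ry12, chr3:59262986-59263105, minus strand: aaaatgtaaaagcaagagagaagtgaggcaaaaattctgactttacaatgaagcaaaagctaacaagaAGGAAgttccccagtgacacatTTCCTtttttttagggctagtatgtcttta
Cx3cr1, chr9:120068297-120068416, minus strand: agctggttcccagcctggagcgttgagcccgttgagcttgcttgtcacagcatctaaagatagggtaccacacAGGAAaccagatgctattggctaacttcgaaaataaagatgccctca
Siglech, chr7:55768064-55768183, plus strand: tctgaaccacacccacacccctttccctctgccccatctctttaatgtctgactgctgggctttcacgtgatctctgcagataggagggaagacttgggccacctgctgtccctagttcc
Trem2, chr17:48346281-48346400, plus strand: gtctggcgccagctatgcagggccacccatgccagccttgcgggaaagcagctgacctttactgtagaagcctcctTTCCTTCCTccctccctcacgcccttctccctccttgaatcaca
Aif1, chr17:35176053-35176172, minus strand: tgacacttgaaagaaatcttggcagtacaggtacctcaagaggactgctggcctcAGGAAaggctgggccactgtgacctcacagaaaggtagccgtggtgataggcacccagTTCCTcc

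Of these 5 promoters, 4 held AGGAA on either strand within the 250 bases before the start, and P2ry12, Trem2 and Aif1 held 2 matches each. The 2 matches of Trem2 overlap by 1 base. Their first bases lay between 7 and 65 bases upstream of the start. Among 32851 promoters of the same length, 60.3% held AGGAA and 26.0% held it at least 2 times, while the shorter GGAA occurred in 93.4%. Siglech held GGAA, but not AGGAA. A match is a description of the letters and not evidence of a bound site.

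The activation motif of Tyrobp was found by its codons in the 345-base coding sequence of its GENCODE transcript. The tyrosine codons are numbers 92 and 103, and each is followed 3 codons later by a leucine codon. Coding bases 265 to 327 are shown because they hold the part through which Trem2 and Siglech pass on their signal, with the codons of these 4 residues in capitals.
Tyrobp, coding strand: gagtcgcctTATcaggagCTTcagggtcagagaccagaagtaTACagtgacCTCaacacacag

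Facts of the whole series that bear on these genes are few. Total counts ranged from 13612381 to 22702547 per library. Csnk2a2 followed the labels, at 14.7 to 19.9 CPM (counts scaled to 1000000 per library after TMM normalization) in the 8 mice labelled with 1 CK2α’ allele and at 29.4 to 37.5 CPM in the other 10. Ttr, Folr1, Kl and Kcnj13, genes of the choroid plexus beside the striatum, summed to 2040 CPM in WT replicate 1, 1700 in WT replicate 3, 953 in CK2α’(±) replicate 1 and 3040 in zQ175:CK2α’(±) replicate 2. In each of the other 14 libraries, all zQ175 libraries among them, the sum was at most 15.5 CPM. Fits without these 4 libraries were made as an alternative.

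Per unit of gene length, the 9 genes fell into 3 tiers. Csf1r (mean 9.39 RPKM, CPM divided by the exonic length in kilobases, over 18 libraries) and Tyrobp (9.25) stood highest, followed by P2ry12 (7.14) and Cx3cr1 (6.55). Selplg (4.41), which encodes the P-selectin ligand PSGL-1, Aif1 (3.80), which encodes the cytoskeletal protein Iba1, Siglech (3.50), a sialic-acid-binding lectin, and Tmem119 (3.45), a membrane protein used as a microglial marker, formed the second tier. Trem2 stood alone at 0.00826 RPKM. Between neighbours in this order, the mean difference exceeded its SD over the 18 libraries at 2 steps only. Cx3cr1 was above Selplg by 2.15 ± 0.959 RPKM (SD, n = 18) and higher in 18 of 18 libraries, and Tmem119 was above Trem2 in 18 of 18. Csf1r was above Tyrobp in 9 of 18 libraries and Siglech above Tmem119 in 10 of 18, so these neighbours were not ordered.

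**Figure D1:**
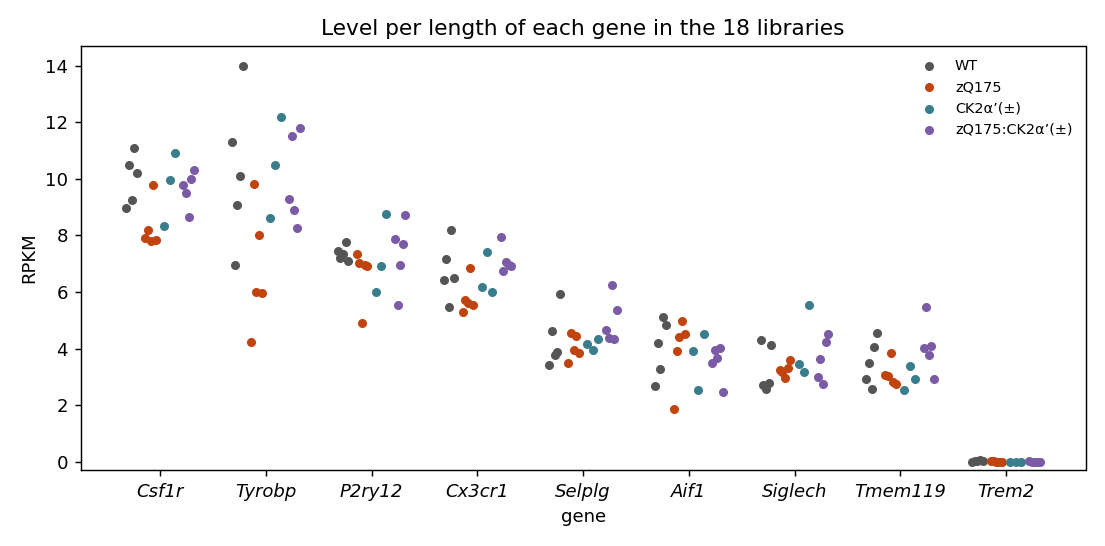
Level of each gene in RPKM, on a linear axis, with 1 point per library and colours for the 4 genotypes. Csf1r and Tyrobp average over 9 RPKM, 4 genes lie near 4 RPKM, and the points of Trem2 sit on the zero line in every genotype.

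Trem2 (ENSMUSG00000023992, GRCm38 chromosome 17, 48346401 to 48354147, 4946 exonic bases) had 15 counts in all 18 libraries together. The WT libraries held 0, 1, 1, 6 and 1 counts. The zQ175 libraries held 3, 1, 0, 0 and 0 counts, the CK2α’(±) libraries 0, 1 and 0, and the zQ175:CK2α’(±) libraries 1, 0, 0, 0 and 0. Its adaptor Tyrobp (ENSMUSG00000030579, chromosome 7, 30413760 to 30417585, 667 exonic bases) had 60 to 202 counts in the same libraries. A count of 0 allows up to 3 counts, or 0.149 to 0.215 CPM in the 10 libraries where Trem2 was at 0, and this limit covers counting error only. No exon of Trem2 is shared with another gene of the annotation, and the cause of its low count was not tested. Trem2 did not pass the filter on low counts, so no genotype difference of Trem2 could be assessed from these counts, and the 8 other genes were tested.

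The comparison of zQ175 with WT mice asks what the huntingtin knock-in does to these genes. All 8 tested genes had a lower fitted level in zQ175 mice, with a median log2 fold change of -0.17 against 0.004 over all genes tested, of which 49.4% were lower. None of the 8 passed an adjusted p of 0.1 in edgeR's quasi-likelihood test, where 1.1% of all genes passed and 0.712% passed as lower. These shares rested on single mice and on the samples fitted. In place of 230 genes, 0 passed without WT replicate 3 or without zQ175 replicate 5, 10 without WT replicate 1, 77 without zQ175 replicate 1, 133 without zQ175 replicate 3, 587 without WT replicate 2, 145 to 153 without CK2α’(±) replicate 2 or without zQ175:CK2α’(±) replicates 1 or 3, and 0 when WT and zQ175 mice were fitted alone. At an unadjusted p under 0.05, Csf1r and Tyrobp were lower in zQ175 mice, 2 of the 8 genes, against 7.1% of all genes lower at this level. DESeq2 also passed 0 of the 8, where it passed 5.26% of the genes it tested.

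Csf1r (ENSMUSG00000024621, chromosome 18) was measured at 51.8, 60.4, 53.5, 64.3 and 59.2 CPM in the WT mice. It was at 45.7, 47.2, 45.1, 56.6 and 45.3 CPM in the zQ175 mice. Thus 4 of 5 zQ175 mice lay below every WT mouse, as 4.43% of all tested genes also showed, and zQ175 replicate 4 lay within the WT range. The fitted log2 fold change was -0.27 (SE 0.089, 95% interval -0.46 to -0.08, edgeR adjusted p = 0.170). Without zQ175 replicate 4 it was -0.34 and passed, with an edgeR adjusted p of 0.092, and over all libraries left out in turn that adjusted p ran up to 0.288. The last exon of Csf1r overlaps Hmgxb3 on the opposite strand, and 15.1% of its exonic bases are shared with other genes. The counting's use of strand is not given in the sources used here, so reads of these bases could belong to either gene.

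Tyrobp carried the largest difference of the 8 genes. WT mice had 7.52, 4.64, 6.06, 6.75 and 9.36 CPM, and zQ175 mice had 2.81, 6.55, 4.00, 5.34 and 3.98 CPM. The groups overlapped, and 3 of 5 zQ175 mice were below the lowest WT mouse. The log2 fold change was -0.60 (SE 0.219, 95% interval -1.06 to -0.15, edgeR adjusted p = 0.207). Tyrobp is a short gene with few counts, and its spread within genotypes was 22.9% of its mean, against 9.45% from the Poisson error of its mean count alone.

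Cx3cr1 (ENSMUSG00000052336, chromosome 9, 119901616 to 120069879) was at 29.0, 32.3, 24.6, 36.9 and 29.2 CPM in WT mice and at 23.8, 25.8, 25.2, 30.9 and 25.0 CPM in zQ175 mice. Only zQ175 replicate 1 was below every WT mouse, and zQ175 replicate 4 again stood highest of its group, as it did for Csf1r. The log2 fold change was -0.22 (SE 0.106, edgeR adjusted p = 0.361). P2ry12 (ENSMUSG00000036353, chromosome 3, 59216272 to 59262871) was the steadiest gene in WT mice, at 19.0, 18.3, 18.7, 19.8 and 18 CPM. The zQ175 mice had 18.7, 17.9, 12.5, 17.7 and 17.6 CPM. Of these, 4 were below the lowest WT mouse, 3 of them by less than 0.5 CPM and replicate 3 far below, and the log2 fold change was -0.15 (SE 0.133, edgeR adjusted p = 0.662). It was -0.07 without zQ175 replicate 3. The fold change of Cx3cr1 was -0.14 without WT replicate 4.

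The other 4 genes differed less than their spread. Tmem119 (ENSMUSG00000054675, chromosome 5, 113793729 to 113800516) averaged 8.14 ± 1.88 CPM (SD, n = 5) in WT and 7.17 ± 0.985 CPM (SD, n = 5) in zQ175 mice. Its neighbour Selplg (ENSMUSG00000048163, chromosome 5, 113818536 to 113832644) averaged 18.4 ± 4.28 and 17.3 ± 1.91 CPM. Siglech (ENSMUSG00000051504, chromosome 7, 55768178 to 55778925) averaged 11.1 ± 2.81 and 11.0 ± 0.779 CPM. Aif1 (ENSMUSG00000024397, chromosome 17, 35170991 to 35176068) averaged 6.16 ± 1.59 and 6.04 ± 1.87 CPM. All zQ175 mice lay within the WT range for Tmem119, Selplg and Siglech, and for Aif1 only zQ175 replicate 1, at 2.86 CPM, was below it. The 95% intervals of the log2 fold changes of these 4 genes reached from -0.56 to 0.47. Tmem119 was at -0.19, and at -0.08 without WT replicate 5 and -0.28 without zQ175 replicate 3, while Selplg, Siglech and Aif1 were each higher in zQ175 mice with some single mice left out.

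**Figure D2:**
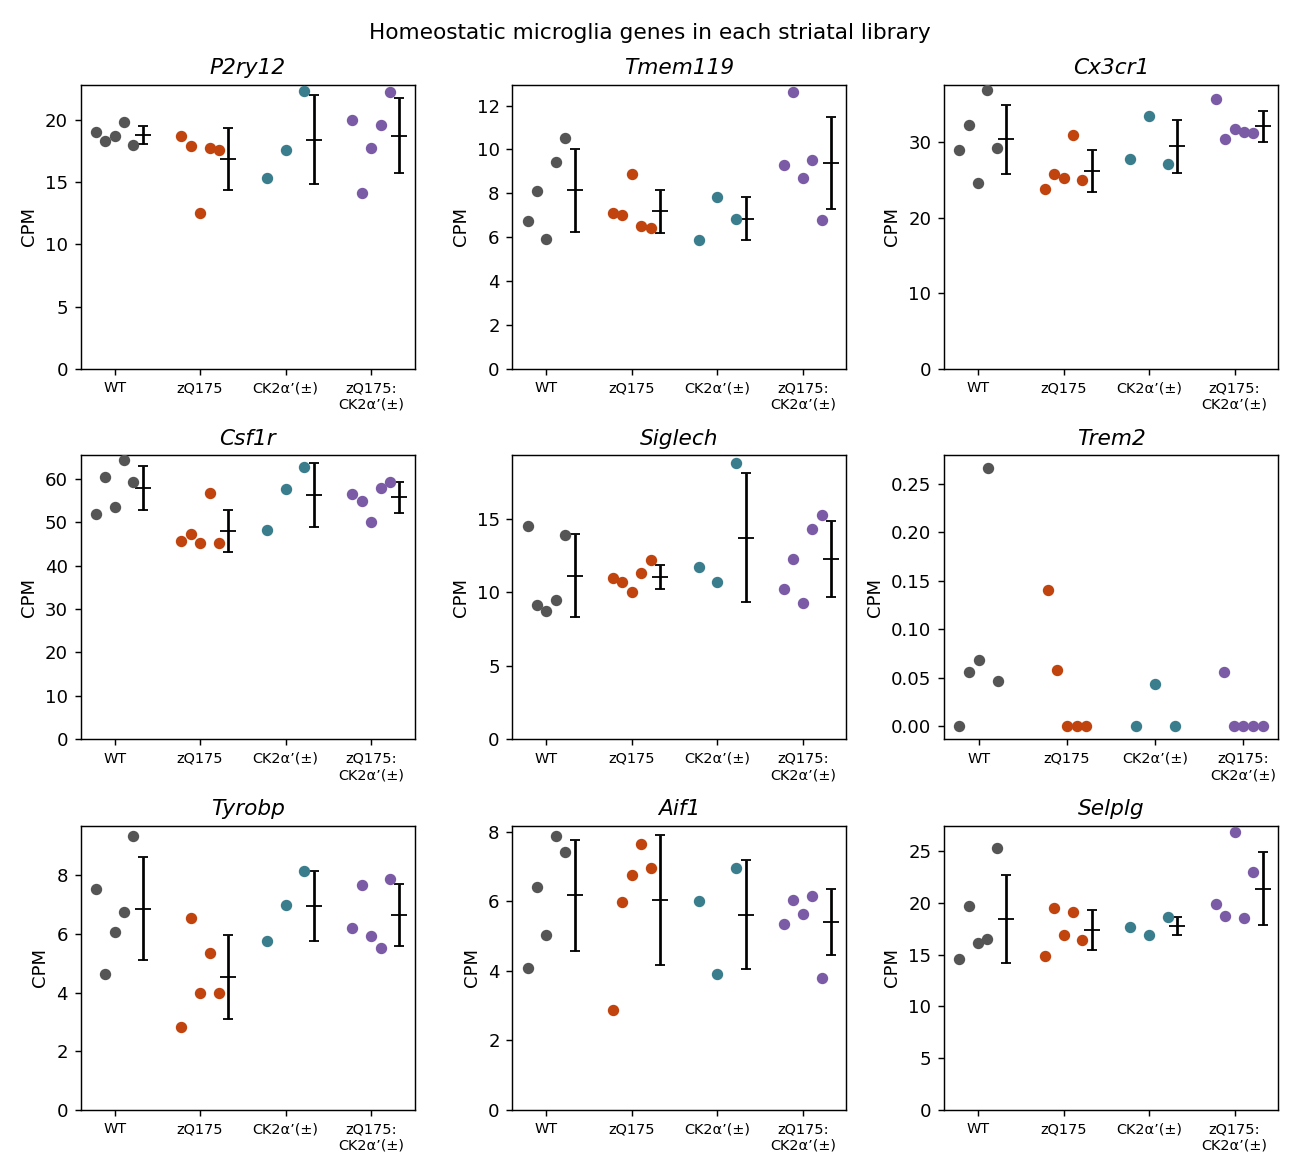
CPM of the 9 genes on linear axes, with 1 point per library and the mean ± SD of each genotype as a bar beside the points (no bar for Trem2, whose counts are at or near 0). For Csf1r, 4 of 5 zQ175 points lie at 45.1 to 47.2 CPM, below every WT point, and for Trem2 no point is above 0.266 CPM.

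Without the 4 libraries high in choroid plexus RNA, the zQ175 values stood against 3 WT mice. Csf1r was then at a log2 fold change of -0.35, Tyrobp at -0.61, Cx3cr1 at -0.33 and Tmem119 at -0.38, and 4 of the 8 genes had an unadjusted p under 0.05 in place of 2. None passed, and Siglech changed sign to 0.03. In this smaller fit 1 of 21312 genes passed in place of 230 of 20914.

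The comparison of zQ175 with zQ175:CK2α’(±) mice asks what the loss of 1 CK2α’ allele does on the knock-in background. It uses the same zQ175 mice as the comparison above, so the 2 sets of values are not independent. Of the 8 genes, 7 were lower in zQ175 mice and Aif1 was higher, with a median log2 fold change of -0.26 against 0.005 over all genes. None passed the adjusted threshold, which 0.0143% of all genes passed. At an unadjusted p under 0.05, 5 of the 8 genes were lower in zQ175 mice, against 2.76% of all genes, namely Tmem119, Cx3cr1, Csf1r, Tyrobp and Selplg. Their edgeR adjusted p-values lay between 0.637 and 0.778. Lists of other cells were read in the same comparison. All 6 oligodendrocyte genes had a lower fitted level in zQ175 mice, with a median of -0.29 and 4 at an unadjusted p under 0.05, and 7 of 8 genes of medium spiny neurons were lower with a median of -0.24 and 0 at that level. Of 6 astrocyte genes, 5 were lower with a median of -0.05, and Gfap, at -0.55, was the 1 at that level. Of 5 general neuron genes, 2 were lower and 3 higher with a median of 0.07, and Syt1, a synaptic vesicle protein, was the 1 higher at that level, at 0.23. Of 3 genes of oligodendrocyte precursors 1 was lower and 2 were higher, and of 6 vascular genes 3 were lower and 3 higher. The part of these cell types in the values of the homeostatic genes was not tested.

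Cx3cr1 was at 35.7, 30.4, 31.8, 31.3 and 31.2 CPM in the zQ175:CK2α’(±) mice. All zQ175 mice except replicate 4 were below this range. The log2 fold change of zQ175 against zQ175:CK2α’(±) was -0.30 (SE 0.107, 95% interval -0.52 to -0.08, edgeR adjusted p = 0.637). Tyrobp was at 6.19, 7.68, 5.94, 5.52 and 7.87 CPM in the zQ175:CK2α’(±) mice, above 4 of the 5 zQ175 mice throughout. Its log2 fold change was -0.55 (SE 0.220, edgeR adjusted p = 0.694). Csf1r was at 56.5, 54.8, 50.0, 57.8 and 59.3 CPM, again above all zQ175 mice but replicate 4, with a log2 fold change of -0.21 (SE 0.089, edgeR adjusted p = 0.713). A pattern of at least 4 zQ175 mice below all zQ175:CK2α’(±) mice was found for 2.94% of all genes.

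Tmem119 was at 9.29, 12.6, 8.70, 9.50 and 6.79 CPM in the zQ175:CK2α’(±) mice and at 7.08, 7.01, 8.86, 6.53 and 6.40 CPM in the zQ175 mice. The ranges overlapped from 6.79 to 8.86 CPM, and the log2 fold change was -0.39 (SE 0.181, edgeR adjusted p = 0.776). Selplg was at 19.9, 18.7, 26.8, 18.5 and 23 CPM against 14.9, 19.5, 16.9, 19.1 and 16.4 CPM, so 3 zQ175 mice lay below the range of the zQ175:CK2α’(±) mice (log2 fold change -0.30, SE 0.142, edgeR adjusted p = 0.778). P2ry12 and Siglech were at log2 fold changes of -0.15 each, with standard errors of 0.134 and 0.184. Aif1 was at 0.16 (SE 0.247). With 1 mouse left out these 3 values kept their signs but moved to as little as -0.06, -0.06 and 0.05.

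The number of genes at an unadjusted p under 0.05 in this comparison rested on single mice. It was 2 without zQ175 replicate 1, zQ175 replicate 5 or zQ175:CK2α’(±) replicate 5, and 3 without zQ175 replicate 3 or zQ175:CK2α’(±) replicate 4. With the Xist level as a covariate it was 2, and without the 4 libraries high in choroid plexus RNA it was 3.

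The zQ175:CK2α’(±) mice were close to WT mice. Of the 8 genes, 4 were lower and 4 higher, with a median log2 fold change of 0.04 against -0.009 over all genes. No member passed, where 0.0143% of all genes did, and 0 of the 8 had an unadjusted p under 0.05, as 9.13% of all genes did (1 of the 8 without WT replicate 5). The fitted values ran from -0.20 for Aif1 to 0.21 for Selplg, and the 95% intervals of the 8 genes reached from -0.71 to 0.57. Without the 4 libraries high in choroid plexus RNA, Tmem119 turned from 0.20 to -0.125, Cx3cr1 from 0.08 to -0.012 and P2ry12 from -0.003 to 0.086 on the log2 scale. The CK2α’(±) mice, with 3 libraries, gave a median of -0.04 against WT (-0.006 over all genes), with 6 genes lower and 2 higher. Again 0 of the 8 genes passed, where 0.0143% of all genes did, and 0 had an unadjusted p under 0.05, as 4.48% of all genes did. Siglech showed the widest difference here, at 11.7, 10.7 and 18.8 CPM against 14.5, 9.16, 8.71, 9.46 and 13.9 CPM in WT mice, and 1 mouse set it (log2 fold change 0.29, SE 0.209, edgeR adjusted p = 0.999). Without CK2α’(±) replicate 3 that fold change was 0.01. P2ry12 turned to 0.089 without the 4 libraries high in choroid plexus RNA.

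Between zQ175:CK2α’(±) and CK2α’(±) mice, which both have 1 CK2α’ allele, the median of the 8 genes was 0.008 against 0.004 over all genes. None passed, where 0.593% of all genes did. Tmem119 alone had an unadjusted p under 0.05, as 9.19% of all genes did, and this count was 0 without WT replicate 2, zQ175 replicate 2, CK2α’(±) replicates 1 or 3, or zQ175:CK2α’(±) replicates 1, 2 or 4. Tmem119 was at 5.86, 7.83 and 6.81 CPM in CK2α’(±) mice, a range that 4 of 5 zQ175:CK2α’(±) mice exceeded (log2 fold change 0.45, SE 0.211, edgeR adjusted p = 0.521). Without the 4 libraries high in choroid plexus RNA its log2 fold change was 0.23. The interaction of both genotypes tests whether the knock-in effect differs with the CK2α’ allele. It was positive for 6 of the 8 genes, with a median of 0.30 on the log2 scale against -0.002 over all genes, and 0.00478% of all genes passed but none of the 8. At an unadjusted p under 0.05, which 5.39% of all genes had, stood 2 of the 8. This count was 0 without WT replicate 4 or CK2α’(±) replicate 1, 0 with the replicate block or the Xist covariate, and 3 without WT replicate 1, zQ175 replicate 4 or the 4 libraries high in choroid plexus RNA. Tmem119 had an interaction of 0.64 (SE 0.277, edgeR adjusted p = 0.916) and Cx3cr1 of 0.34 (SE 0.163, edgeR adjusted p = 0.916). The effect of zQ175 on these genes was therefore not shown to differ between mice with 1 and 2 CK2α’ alleles.

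**Figure D3:**
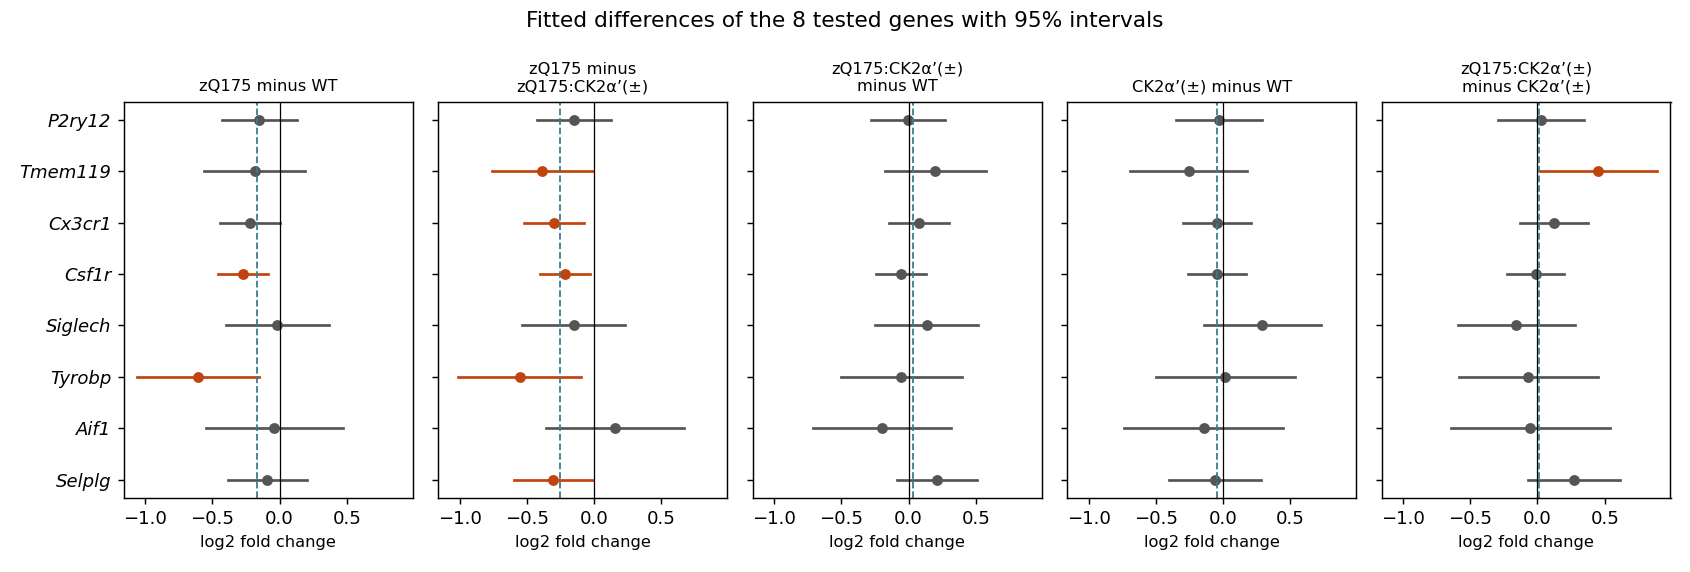
Log2 fold changes of the 8 tested genes with 95% intervals in 5 comparisons, in red where the unadjusted p was under 0.05, with a solid line at 0 and a dashed line at the median of the 8 genes. The median lies at -0.17 for zQ175 minus WT and at -0.26 for zQ175 minus zQ175:CK2α’(±), and within 0.05 of 0 in the other 3 comparisons.

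The summed level of the 9 genes was 139 to 173 CPM in WT mice, 127 to 155 CPM in zQ175 mice, 138 to 171 CPM in CK2α’(±) mice and 156 to 169 CPM in zQ175:CK2α’(±) mice. The highest zQ175 mouse, replicate 4, was just below the lowest zQ175:CK2α’(±) mouse. This sum is weighted towards Csf1r and Cx3cr1, and it was not tested.

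Of the partners of these genes, Apoe and Clu were the only ones that passed between zQ175 and WT mice. Of the 7 ligands listed, 5 were tested, and each had a lower fitted level in zQ175 mice, 2 of them past the threshold, which 0.712% of all genes passed as lower. Apoe, the lipoprotein that binds Trem2, fell from 1640 ± 221 CPM (SD, n = 5) to 1070 ± 128 CPM (SD, n = 5), a log2 fold change of -0.62 (SE 0.099, edgeR adjusted p = 0.0442). Clu, another lipoprotein that binds Trem2, fell by 0.41 on the log2 scale (SE 0.094, edgeR adjusted p = 0.0613). Both calls were lost without the 4 libraries high in choroid plexus RNA, with fold changes of -0.48 and -0.29 and an edgeR adjusted p of 0.496 each, when WT and zQ175 mice were fitted alone, and without WT replicate 3 or zQ175 replicate 5. The call of Clu was also lost without WT replicate 1 or zQ175 replicates 1 or 3, and with the replicate block (edgeR adjusted p = 0.114). Both genes are expressed mainly by astrocytes in healthy brain. Csf1 and Il34, the Csf1r ligands, were at -0.18 and -0.30, and the Cx3cr1 ligand Cx3cl1 was at -0.23, all short of the threshold. Selp and Sele, the selectins that bind the Selplg product, had 6 and 0 counts in all libraries and were not tested.

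Of 8 genes listed for signalling below Trem2, Tyrobp and Csf1r, 7 were tested, of which 6 had a lower fitted level in zQ175 mice and none passed. The median log2 fold change was -0.19, with Vav1, a guanine nucleotide exchange factor of immune cells, at -0.68 (SE 0.237, edgeR adjusted p = 0.195). Inpp5d, the lipid phosphatase SHIP1, and Lyn, a Src-family kinase, were the highest per length and were at -0.12 and -0.33. Of 6 transcription factors of microglia, 4 were lower and 2 higher with none past the threshold, and Spi1, which encodes PU.1, was at -0.23 (SE 0.311). Sall1, the highest of the 6 per length at 5.25 RPKM, was at -0.05.

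Of 17 other homeostatic microglia genes, 16 were tested, 12 of them lower in zQ175 mice with a median of -0.20, and 3 passed as lower, as 0.712% of all genes did. These 3 were C1qa, C1qb and C1qc, the chains of the complement starter C1q. C1qa fell from 30.0 ± 2.62 to 19.3 ± 6.00 CPM (SD, n = 5 each), a log2 fold change of -0.64 (SE 0.150, edgeR adjusted p = 0.0707). C1qb and C1qc fell by 0.62 each on the log2 scale, with edgeR adjusted p-values of 0.0946 and 0.0819. The groups overlapped for all 3 chains. Without the 4 libraries high in choroid plexus RNA, the 3 fold changes were -0.59, -0.69 and -0.70 and none passed, with edgeR adjusted p-values of 0.496 to 0.498. With 1 mouse left out, the edgeR adjusted p was highest without WT replicate 3, at 0.167 for C1qa, 0.186 for C1qb and 0.164 for C1qc. Ctss, which encodes a lysosomal protease, was at -0.26.

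Of 10 pan-myeloid genes, all were tested and had a lower fitted level in zQ175 mice, with a median of -0.27 and none past the threshold. Against zQ175:CK2α’(±) mice all 10 were lower too, with a median of -0.41, none past the threshold, and 6 at an unadjusted p under 0.05, where 2.76% of all genes were lower at this level. Cd68, a lysosomal protein of macrophages, was at -0.31 and -0.41 in the 2 comparisons, and Fcer1g, an adaptor related in function to Tyrobp, at -0.27 and -0.41. Of 18 genes raised in disease-associated microglia, 14 had a lower fitted level in zQ175 mice, with a median of -0.21 against WT. The 2 that passed as lower, as 0.712% of all genes did, were Ctsd, a lysosomal protease (-0.37, SE 0.096, edgeR adjusted p = 0.0946), and Fth1, the ferritin heavy chain (-0.45, SE 0.087, edgeR adjusted p = 0.0469), both widely expressed outside microglia. Clec7a and Cst7, which mark that state more closely, were at -0.64 (SE 0.603) and 0.09 (SE 0.588). None of the 18 passed as higher in zQ175 mice. Between zQ175:CK2α’(±) and CK2α’(±) mice, Timp2, a protease inhibitor, rose by 0.55 (SE 0.119, edgeR adjusted p = 0.0659) and Fth1 fell by 0.41 (SE 0.099, edgeR adjusted p = 0.0966) on the log2 scale, where 0.593% of all genes passed. Both of these calls were lost without the 4 libraries high in choroid plexus RNA, where the fold changes were 0.60 and -0.46, and with the replicate block, and the edgeR adjusted p with 1 mouse left out reached 0.271 for Timp2 and 0.468 for Fth1, both without CK2α’(±) replicate 2. Ctsd and Fth1 did not pass between zQ175 and WT mice without the 4 libraries either, with fold changes of -0.36 and -0.41 and an edgeR adjusted p of 0.496 each, and without WT replicate 3 it was 0.230 for Ctsd and 0.155 for Fth1.

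**Figure D4:**
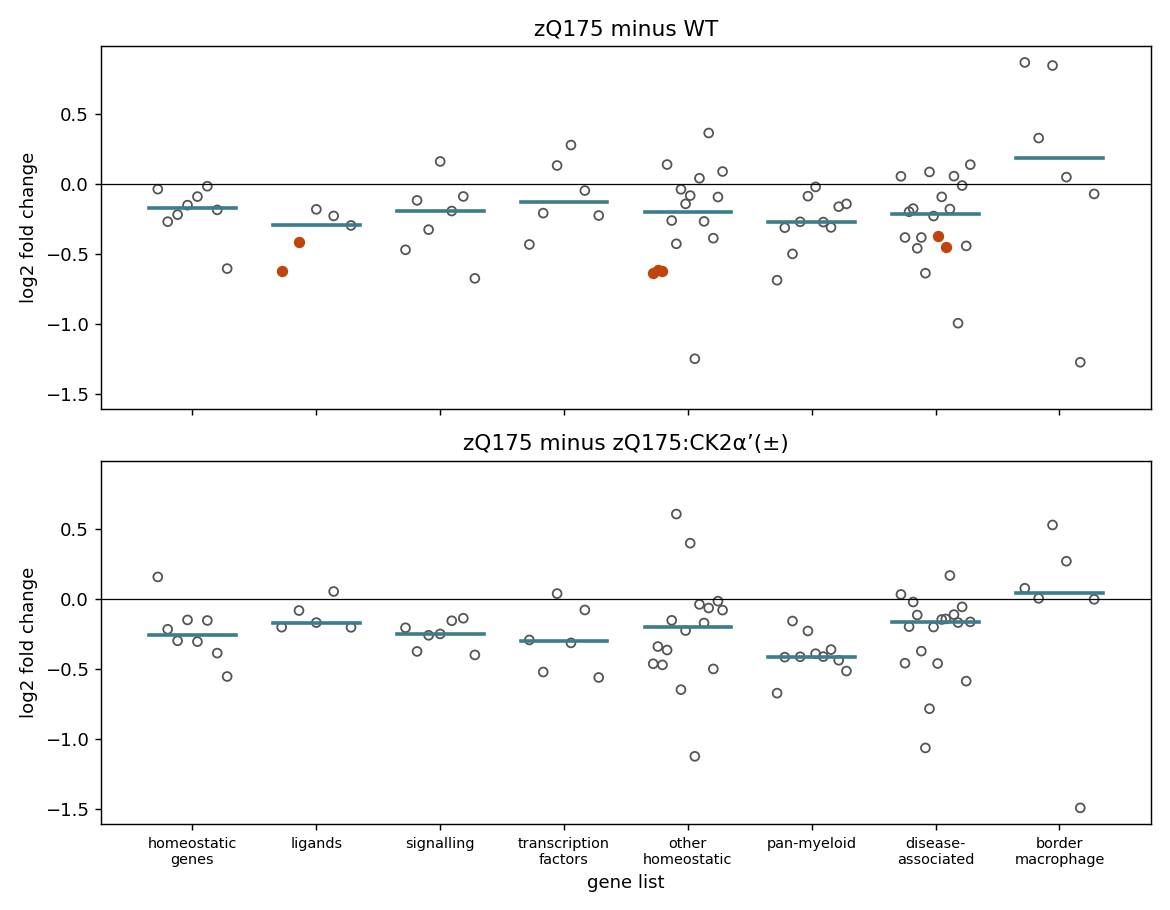
Log2 fold changes of the genes in 8 lists, 1 point per gene, filled red where the edgeR adjusted p was under 0.1, with a bar at each list's median. The homeostatic genes have their median at -0.17 and at -0.26 in the 2 comparisons, with no filled point, and the filled points against WT belong to Apoe, Clu, the 3 C1q chains, Ctsd and Fth1.

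Markers of other cells were read beside these values. Of 8 genes of border-associated macrophages, 6 were tested, with 2 lower and 4 higher fitted levels in zQ175 mice and none past the threshold. Cd163, a haemoglobin scavenger receptor, was the 1 higher at an unadjusted p under 0.05, at 0.87 on the log2 scale (SE 0.379, edgeR adjusted p = 0.315). Their summed level was 14.8 to 19.4 CPM in WT and 13.7 to 22.1 CPM in zQ175 mice, with Stab1 and Mrc1 the highest per length at 1.08 and 0.468 RPKM. The list of blood cells summed to 0.149 to 1.34 CPM in WT and 0.422 to 6.99 CPM in zQ175 mice, with Plac8 at 0 counts in both groups. It reached 22.7 CPM in CK2α’(±) mice and 21 CPM in zQ175:CK2α’(±) mice, mostly from the haemoglobin genes. The 6 oligodendrocyte genes, from 5400 to 7460 CPM in WT mice and from 3520 to 5300 CPM in zQ175 mice, were all lower in zQ175 mice, and Mbp, Mobp and Cnp were among those that passed. The 8 genes of medium spiny neurons were also lower, and Penk, Adora2a and Ppp1r1b passed. None of these 6 named genes passed without the 4 libraries high in choroid plexus RNA, with edgeR adjusted p-values of 0.496 to 0.521 in that fit, where the log2 fold changes were -0.52 for Mbp (-0.58 with all libraries), -0.53 for Mobp (-0.60), -0.44 for Cnp (-0.42), -0.909 for Penk (-1.002), -0.94 for Adora2a (-1.12) and -0.74 for Ppp1r1b (-0.85). The 6 astrocyte genes were lower too, with a median of -0.17 and none past the threshold, and summed to 1050 to 1190 CPM in WT mice and 843 to 1020 CPM in zQ175 mice. Of 5 genes of neurons in general, 2 were lower and 3 higher with a median of 0.12, and 2 were higher at an unadjusted p under 0.05. The part of tissue composition in the values of the homeostatic genes was not tested.

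Within genotypes the 8 genes varied together only weakly. After each genotype's mean was removed, the 28 pairs had a median Pearson r of 0.21 over 18 libraries, and 24 were positive. The pair of Cx3cr1 and Csf1r stood highest at 0.58 and the pair of P2ry12 and Tmem119 lowest at -0.49. In zQ175 replicate 3 P2ry12 was the lowest of its group and Tmem119 the highest, and in zQ175:CK2α’(±) replicate 2 the same was seen. The points share library depth, and with 60 to 202 counts for Tyrobp and 61 to 177 for Aif1, counting error adds scatter. It was 3.19% for Csf1r and 9.76% for Aif1, against spreads within genotypes of 9.36% and 26.2%. The part of counting error and of depth in these correlations was not tested.

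**Figure D5:**
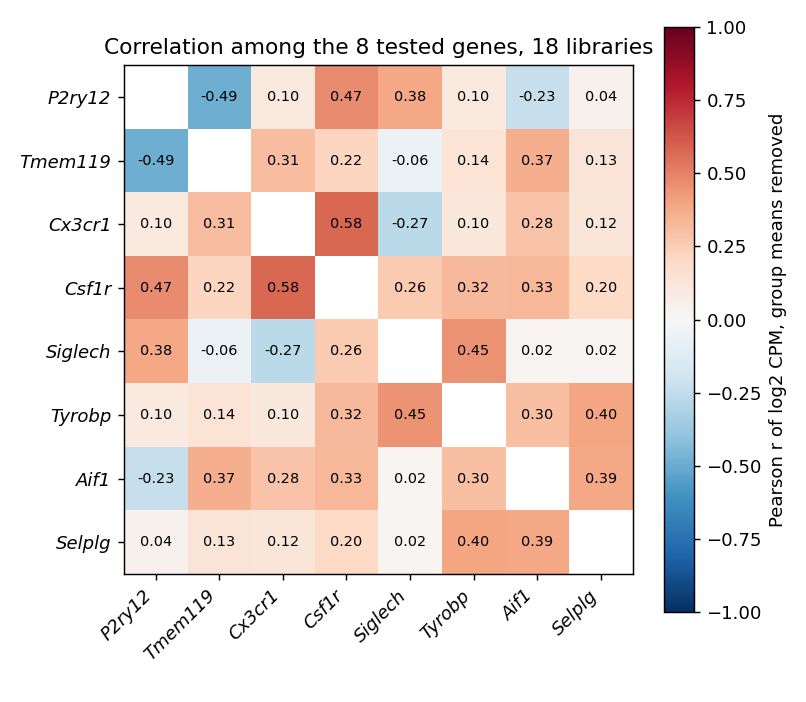
Pearson r between the log2 CPM of each pair of the 8 tested genes over 18 libraries after removal of genotype means, from -1 (blue) to 1 (red). Most cells are pale, with 0.58 for Cx3cr1 and Csf1r and -0.49 for P2ry12 and Tmem119.

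The genes most alike to the mean of the 8 were ranked by Pearson r with genotype means removed, over 18 libraries. Csf1r, itself part of the mean, had an r of 0.80 and P2ry12 of 0.33. The 10 highest of 20906 other genes were Gm6767 (0.88), Pcdhb10 (0.86), A830012C17Rik (0.85), Gm38248 (0.81), C1qc (0.80), Trp53i11 (0.80), Papss1 (0.79), Cdkn2a (0.79), Pld5 (0.78) and Prdx1 (0.78). Of these only C1qc was on a microglial list. They are the extremes of 20906 genes over 18 libraries, and how many genes would reach such an r by chance was not tested. The r of all other genes lay between -0.48 and 0.50 from the 5th to the 95th percentile.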

How the data were processed

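The members and gene lists were chosen with earlier results of these data known. RNA was prepared with a stranded total RNA kit (Takara) and all libraries were sequenced together on 1 lane. After trimming (Trimmomatic) and alignment to GRCm38 by HISAT2 2.1.0, the authors discarded duplicates and poorly mapped reads and deposited raw counts per gene made with Subread 1.6.2, per the labels. The deposited gene lengths are other values, summed exon lengths in bases, and were used for RPKM. The counting's strand setting is not given in the sources used here.

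Differences were tested with edgeR 4.0.16 under R 4.3.3 (TMM, filterByExpr, 20914 genes, a quasi-likelihood fit of all 18 libraries with genotype as factor). The threshold was a Benjamini-Hochberg adjusted p of 0.1. DESeq2 1.42.0 was an alternative. Both were run on simulated counts in which 200 genes differed by 1 on the log2 scale between zQ175 and WT. This change is larger than that of any member, so the simulation does not show the power for the members. Log2 CPM used a prior count of 2. p-values set a difference between groups against the spread between mice within groups, which was estimated over all 18 libraries. Total counts of 13612381 to 22702547 per library limit the precision of low genes, and the limits given for counts of 0 cover counting error only. Promoters were taken from RefSeq on GRCm38.p6.

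Alternatives were DESeq2, its size factors, no filter or 10 counts in 10% of libraries, a fit to the groups of each comparison alone, a block for replicate number, Xist as covariate, a robust fit, a threshold of 0.05 and leaving out each mouse. The fit without the 4 libraries with over 100 CPM of choroid plexus genes, and the alternatives for other genes and for counts at an unadjusted p, were added after the values were seen.

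Named were all 9 members and Csnk2a2, of each other list the genes that passed in any comparison or else the 2 with the highest mean RPKM, and the 10 genes most alike, except some that are not reported here. Csf1, Il34, Cx3cl1, Selp, Sele, Vav1, Spi1, Ctss, Clec7a, Cst7, Plac8, Gfap, Syt1, Cd163 and the choroid plexus genes were named beyond this rule after their values were seen.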

Additional observations from a re-analysis of the deposited data

Results flagged for a closer look

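The highest or lowest of 5 libraries stood apart from the others in 12 of 72 sets of values tested with Dixon's criterion, which chance meets in about 1 of 20 sets. Of the 12 sets, 7 concern members, 2 of them Trem2. P2ry12 was at 12.5 CPM in zQ175 replicate 3, where the other zQ175 mice had 17.6 to 18.7 CPM. Tmem119 was at 8.86 CPM in the same mouse, with the others at 6.40 to 7.08 CPM. Csf1r was at 56.6 CPM and Cx3cr1 at 30.9 CPM in zQ175 replicate 4, with the others at 45.1 to 47.2 and at 23.8 to 25.8 CPM. Cx3cr1 was at 35.7 CPM in zQ175:CK2α’(±) replicate 1, with the others at 30.4 to 31.8 CPM.

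Trem2 stood apart at 0.266 CPM in WT replicate 4 and at 0.0563 CPM in zQ175:CK2α’(±) replicate 1, which are 6 counts and 1 count. Among summed lists, disease-associated genes were at 2050 CPM and oligodendrocyte genes at 7460 CPM in WT replicate 3, and oligodendrocyte precursor genes were at 85.9 CPM in WT replicate 4. In zQ175:CK2α’(±) replicate 2, blood genes were at 21 CPM and choroid plexus genes at 3040 CPM.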

How the results depend on the processing

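The number of members that passed was 0 in the 6 comparisons under every alternative run except 1. Without zQ175 replicate 4 it was 1 between zQ175 and WT mice, so with each mouse left out in turn it ranged from 0 to 1. With FDR 0.05 and with DESeq2 it was also 0.

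Fold changes of members that did not pass changed sign in 16 of 424 values outside the leave-one-out fits. With the replicate block these were, for CK2α’(±) against WT, P2ry12 (0.024), Csf1r (0.015) and Aif1 (0.015), and for zQ175:CK2α’(±) against CK2α’(±), P2ry12 (-0.036). With the Xist covariate they were Aif1 in zQ175 against WT (0.086), and Csf1r (0.007), Aif1 (0.090) and Selplg (0.024) in CK2α’(±) against WT. With DESeq2 it was P2ry12 in zQ175:CK2α’(±) against WT (0.000). Without the 4 libraries high in choroid plexus RNA they were Siglech in zQ175 against WT (0.025), P2ry12 (0.086), Tmem119 (-0.125) and Cx3cr1 (-0.012) in zQ175:CK2α’(±) against WT, P2ry12 in CK2α’(±) against WT (0.089) and in zQ175:CK2α’(±) against CK2α’(±) (-0.003), and Aif1 in the interaction (0.227). The cause of these changes was not tested.

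Leaving out each mouse changed the sign of 42 of 864 values. The ranges were, for zQ175 against WT, -0.171 to 0.144 (Aif1), -0.180 to 0.052 (Selplg) and -0.091 to 0.081 (Siglech). For zQ175:CK2α’(±) against WT they were -0.071 to 0.082 (P2ry12) and -0.178 to 0.086 (Tyrobp). For CK2α’(±) against WT they were -0.320 to 0.067 (Aif1), -0.128 to 0.056 (Csf1r), -0.147 to 0.034 (Cx3cr1), -0.190 to 0.085 (P2ry12), -0.132 to 0.084 (Selplg) and -0.107 to 0.154 (Tyrobp). For zQ175:CK2α’(±) against CK2α’(±) they were -0.263 to 0.124 (Aif1), -0.111 to 0.073 (Csf1r), -0.087 to 0.187 (P2ry12), -0.309 to 0.129 (Siglech) and -0.189 to 0.055 (Tyrobp). For the interaction they were -0.225 to 0.162 (Aif1) and -0.293 to 0.145 (Siglech).

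Same-numbered libraries of different groups had residual correlations of -0.136 to 0.120, and libraries with different numbers had -0.234 to 0.187. Of 18 libraries, 1 correlated best with its own number. Whether mice of the same number shared a litter or were handled together was not tested. The replicate block left 0 members past the threshold. Over all genes, the 230 calls between zQ175 and WT mice became 855 with DESeq2, 451 with no filter, 98 with the replicate block, 0 with only these groups fitted, 1 without the 4 libraries, and 0 to 587 with a mouse left out. The 124 calls between zQ175:CK2α’(±) and CK2α’(±) mice became 322, 297, 12, 461, 14 and 6 to 221, and 75 with the Xist covariate. The 3 calls of zQ175:CK2α’(±) against WT ran from 1 to 123, those of zQ175 against zQ175:CK2α’(±) from 1 to 51 and those of CK2α’(±) against WT from 0 to 19, and the 1 call of the interaction from 0 to 19. The C1q chains, Apoe and the other named genes that passed lost their call in 58 of 198 values outside the leave-one-out fits and in 139 of 396 with a mouse left out. The values of Trem2 and the other genes with few counts are limited by counting error, and the cause of the low count of Trem2 was not tested.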
